A study of Mus musculus with 13 samples.

Results

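The mouse MS4A family was examined through 7 genes, Ms4a4a, Ms4a4b, Ms4a4c, Ms4a6b, Ms4a6c, Ms4a6d and Ms4a7, found by matching their symbols to the Ensembl identifiers of the 52636 genes listed for each mouse. RNA-Seq was performed on brain resident myeloid cells from 13 mice of 14 to 15 months of age, 7 of them PS2APP;Trem2wt with 2 males and 6 PS2APP;Trem2ko with 1 male. Mice of both groups carried the PS2APP transgenes, human presenilin 2 and amyloid precursor protein, which lead to β-amyloid plaques, and the PS2APP;Trem2ko mice also lacked both functional copies of Trem2 through a null allele made in C57BL/6N and crossed into the C57BL/6J background of PS2APP. Live CD11b+ CD45+ cells negative for Ccr2 and Ly6g were sorted from cortex and hippocampus after the choroid plexus and, so far as could be done, the meninges had been taken away. The study describes the sorted cells as nearly all microglia, with perivascular macrophages at about 2% of the total. The sort can also hold meningeal macrophages. The study's methods say that wt and ko mice were in general handled in pairs up to sorting, but which mice formed a pair is not given in the labels, so the tests here are unpaired and leave that shared handling out. The comparison asks whether loss of Trem2 alters MS4A expression in these cells.

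MS4A genes encode small multi-pass membrane proteins, many of them made by immune cells. Ms4a1 encodes the B cell antigen CD20 and Ms4a2 a subunit of the high-affinity IgE receptor, whereas Ms4a4, Ms4a6 and Ms4a7 genes are active in macrophages, microglia and lymphocytes. Common variants at the human MS4A locus have been associated with Alzheimer's disease risk and with the amount of soluble TREM2 in cerebrospinal fluid.

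The 7 genes lie close together on chromosome 19 of GRCm38, between 11321039 and 11604849. From the lower coordinate they run Ms4a7 (11321039 to 11336146, minus strand), Ms4a4a (11375523 to 11392790, plus), Ms4a4c (11404770 to 11427246, plus), Ms4a4b (11443553 to 11467055, plus), Ms4a6c (11469366 to 11482192, plus), Ms4a6b (11516512 to 11531256, plus) and Ms4a6d (11586604 to 11604849, minus). Ms4a4d, which is not among the 7, lies between Ms4a6b and Ms4a6d (11536801 to 11558467, plus). The coding sequences of the 7 genes fall into similar groups. Ms4a4b and Ms4a4c were 91.7% identical over the aligned bases, Ms4a6b and Ms4a6c 85.4%, Ms4a6b and Ms4a6d 81.2% and Ms4a6c and Ms4a6d 79.0%, whereas Ms4a4a was 68.3% identical to Ms4a4c and 67.1% to Ms4a4b, and Ms4a7 was between 62.8% and 65.9% identical to the others.

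The first 60 coding bases of the Ms4a6 genes are shown because they display how near these copies are to each other, with capitals at the 12 positions where the 3 genes are not all the same. Each stretch lies within 1 coding exon, at chr19:11520339-11520398 (plus strand) for Ms4a6b, chr19:11471105-11471164 (plus) for Ms4a6c and chr19:11603233-11603292 (minus) for Ms4a6d, in GENCODE M21 transcripts on GRCm38.
Ms4a6b: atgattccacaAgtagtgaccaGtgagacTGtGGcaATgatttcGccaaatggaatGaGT
Ms4a6c: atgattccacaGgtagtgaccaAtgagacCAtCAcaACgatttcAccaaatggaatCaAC
Ms4a6d: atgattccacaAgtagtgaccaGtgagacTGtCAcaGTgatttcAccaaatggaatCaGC

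The same bases of Ms4a4b (chr19:11449919-11449978, plus strand) and Ms4a4c (chr19:11414817-11414876, plus) differed at 5 positions, in capitals.
Ms4a4b: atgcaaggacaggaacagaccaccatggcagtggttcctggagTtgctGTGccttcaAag
Ms4a4c: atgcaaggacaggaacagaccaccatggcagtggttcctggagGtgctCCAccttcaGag

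Further along, coding bases 321 to 447 of Ms4a4b and Ms4a4c were identical over 127 bases, the longest such run in this pair. It spans more than 1 exon, from 11459161 to 11461265 of chromosome 19 for Ms4a4b and from 11419001 to 11421266 for Ms4a4c, and it is shown because the reads had 50 bases, so that a read lying wholly within it cannot be assigned to either gene.
Ms4a4b and Ms4a4c: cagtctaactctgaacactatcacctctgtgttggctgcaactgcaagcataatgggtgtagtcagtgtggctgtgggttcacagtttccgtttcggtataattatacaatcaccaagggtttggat

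Only reads that aligned uniquely had been counted, so it was computed how many of the 50-base stretches in a gene's transcripts recur in another gene, on either strand. The share was 8.19% for Ms4a4c, 3.57% for Ms4a6b, 2.54% for Ms4a6d, 2.40% for Ms4a4b and 0.306% for Ms4a7, and no shared stretch was found for Ms4a4a. Ms4a6c stood apart with 51.4%, nearly all of it (49.6%) shared with BE692007, a non-coding transcript on the opposite strand that overlaps Ms4a6c. The SMART-seq v4 kit named in the study's methods does not mark strand, so reads from the stretches that these overlapping genes share could not be told apart. BE692007 had between 20 and 139 counts per mouse, against 535 to 2552 for Ms4a6c.

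Total counts per mouse were between 26120961 and 120569609. The median was 35201380 in PS2APP;Trem2wt and 55371726 in PS2APP;Trem2ko mice, with minima of 26120961 and 41567025, so depth differed between the genotypes. Trem2 served as a check of the genotype labels: its level was between 818 and 1244 nRPKM in PS2APP;Trem2wt mice and between 0.393 and 2.29 nRPKM in PS2APP;Trem2ko mice, where nRPKM is the authors' RPKM, reads per gene length and library depth, after scaling with a size factor. Over the 17086 genes that passed the expression filter, edgeR's quasi-likelihood test called 348 genes between the genotypes at an adjusted p of 0.05 or less, which is 2.04% of the genes tested, with 86 higher (0.503%) and 262 lower (1.53%) in PS2APP;Trem2ko.

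All 7 MS4A genes passed the filter and had counts in every mouse, and 0 of the 7 were called between the genotypes, against 2.04% of all genes. At an unadjusted p of 0.05 or less, 0 of the 7 passed as well, against 14.8% of all genes, and voom with limma and DESeq2 also called 0. The values of the 2 genotypes overlapped for all 7 genes, while 1.64% of all genes did not overlap in CPM. Fitted log2 fold changes (PS2APP;Trem2ko over PS2APP;Trem2wt) were above 0 for 6 members and below 0 for 1, with a median of 0.38 beside a median of 0.0039 over all genes. These samples are RNA from bulk sorted cells, so fewer cells of a kind and less RNA per cell cannot be told apart.

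**Figure D1:**
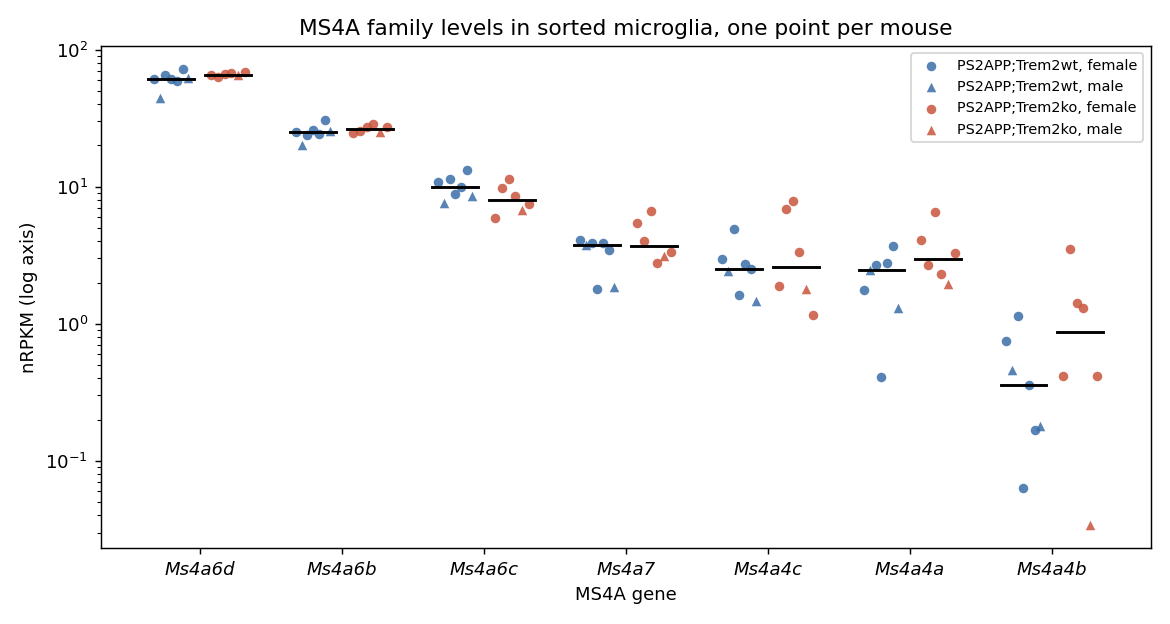
Level of each MS4A gene in nRPKM on a log axis, with 1 point per mouse, circles for females, triangles for males and a bar at the median of each genotype. Ms4a6d and Ms4a6b were the most abundant and least variable members, Ms4a4b was the lowest and ranged from 0.0338 to 3.52 nRPKM, and the genotypes overlapped for every gene.

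Ms4a6d was the most abundant member. It ranged from 44.1 to 72.5 nRPKM with a median of 61.3 in PS2APP;Trem2wt mice and from 63.4 to 69.1 nRPKM with a median of 65.7 in PS2APP;Trem2ko mice. All 6 PS2APP;Trem2ko mice were above the PS2APP;Trem2wt median, 1 PS2APP;Trem2wt mouse was higher than any of them and 5 were lower. The log2 fold change was 0.12 ± 0.09 (SE, 95% confidence interval -0.07 to 0.31), with an adjusted p of 0.566 by edgeR. On the linear scale this interval runs from 0.955 to 1.24 times the PS2APP;Trem2wt level, so a change of 1.5 times in either direction lies outside it.

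Ms4a6b, known from T lymphocytes as well as macrophages, had the second highest level. It ranged from 20.2 to 30.6 nRPKM (median 25.02) in PS2APP;Trem2wt mice and from 24.6 to 28.5 nRPKM (median 26.4) in PS2APP;Trem2ko mice. The PS2APP;Trem2ko values lay within the PS2APP;Trem2wt range. The log2 fold change was 0.08 ± 0.08 (SE, 95% interval -0.10 to 0.25), with an adjusted p of 0.723 by edgeR, and the interval reached at most 1.19 times the PS2APP;Trem2wt level.

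Ms4a6c was the 1 member with a fitted change below 0. Its level was between 7.54 and 13.2 nRPKM (median 10.02) in PS2APP;Trem2wt mice and between 5.87 and 11.4 nRPKM (median 8.03) in PS2APP;Trem2ko mice. Of the PS2APP;Trem2ko mice, 3 of 6 were below every PS2APP;Trem2wt mouse, and 1 PS2APP;Trem2wt mouse was above every PS2APP;Trem2ko mouse. The log2 fold change was -0.28 ± 0.16 (SE, 95% interval -0.61 to 0.06), with an adjusted p of 0.438 by edgeR. BE692007, the overlapping opposite-strand transcript, had a log2 fold change of -0.72 ± 0.30 (SE, edgeR adjusted p of 0.274), and its part in the Ms4a6c values was not tested.

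Ms4a7, a gene expressed in macrophages at the borders of the brain, ranged from 1.80 to 4.09 nRPKM (median 3.72) in PS2APP;Trem2wt mice and from 2.76 to 6.69 nRPKM (median 3.68) in PS2APP;Trem2ko mice. The medians were close, and 2 PS2APP;Trem2ko mice were above and 2 PS2APP;Trem2wt mice below all mice of the other genotype. The log2 fold change was 0.38 ± 0.24 (SE, 95% interval -0.14 to 0.89), with an adjusted p of 0.503 by edgeR.

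Ms4a4a, whose human counterpart is made by macrophages and has been reported in contact with TREM2 and with the β-glucan receptor encoded by Clec7a, ranged from 0.407 to 3.72 nRPKM (median 2.45) in PS2APP;Trem2wt mice and from 1.95 to 6.49 nRPKM (median 2.97) in PS2APP;Trem2ko mice. In 3 PS2APP;Trem2wt mice it was below, and in 2 PS2APP;Trem2ko mice above, all mice of the other genotype. Its log2 fold change of 0.68 ± 0.38 (SE, 95% interval -0.13 to 1.49) had an adjusted p of 0.430 by edgeR, and the interval includes both no change and a rise of more than 2-fold.

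Ms4a4c ranged from 1.46 to 4.90 nRPKM (median 2.49) in PS2APP;Trem2wt mice and from 1.16 to 7.81 nRPKM (median 2.61) in PS2APP;Trem2ko mice. Both the highest and the lowest mice were PS2APP;Trem2ko. The log2 fold change was 0.51 ± 0.41 (SE, 95% interval -0.37 to 1.39), with an adjusted p of 0.613 by edgeR, and it was 0.18 without PS2APP;Trem2ko replicate 3, the mouse with the highest level, 0.26 without PS2APP;Trem2ko replicate 2 and 0.15 with voom and limma.

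Ms4a4b, a gene known from T lymphocytes, was the scarcest member, at 3 to 395 counts per mouse, and 3 counts is the limit of detection used here. It ranged from 0.0631 to 1.15 nRPKM (median 0.358) in PS2APP;Trem2wt mice and from 0.0338 to 3.52 nRPKM (median 0.866) in PS2APP;Trem2ko mice. The lowest mouse and the 3 highest mice were all PS2APP;Trem2ko. The log2 fold change was 1.39 ± 0.76 (SE, 95% interval -0.22 to 2.99), with an adjusted p of 0.416 by edgeR, and it fell to 0.66 without PS2APP;Trem2ko replicate 2, the mouse with the highest level. At this spread, changes of up to 7.97 times lie within the interval.

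Taken 1 gene at a time, a two-sided exact permutation test over the 1716 splits of the mice on log2(nRPKM + 0.1) gave p-values between 0.119 (Ms4a4a) and 0.577 (Ms4a4c), where the smallest p this design allows is 0.000583.

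**Figure D2:**
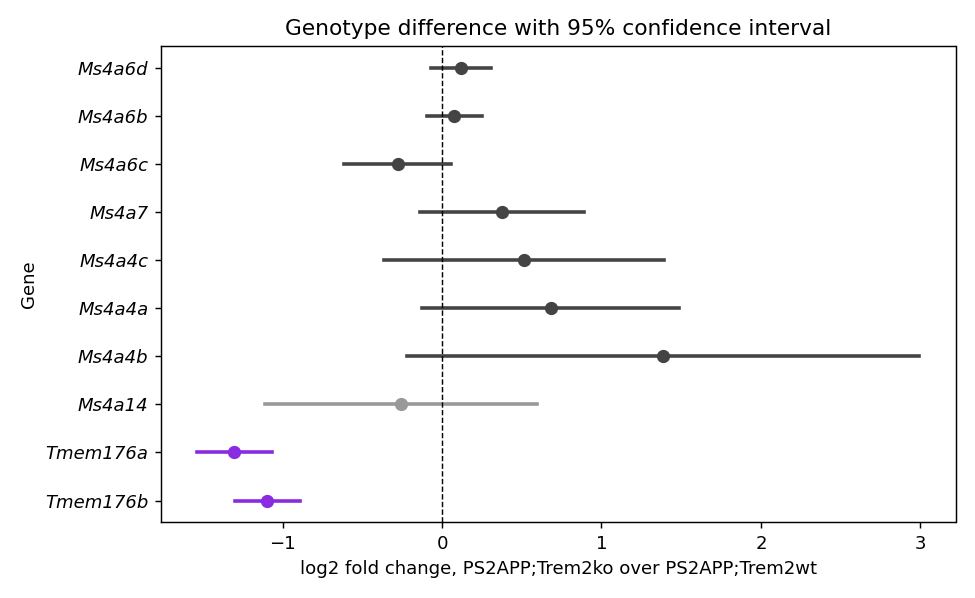
Log2 fold change of PS2APP;Trem2ko over PS2APP;Trem2wt (x axis) for the 7 MS4A genes, Ms4a14 and the related genes Tmem176a and Tmem176b (y axis), with bars for the 95% confidence interval of the edgeR fit. The interval includes 0 for all 8 MS4A genes and lies below 0 for Tmem176a and Tmem176b.

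The level per length allows the members to be ordered. In PS2APP;Trem2wt mice the mean levels fell from Ms4a6d (60.6 ± 8.61 nRPKM, SD, n = 7) through Ms4a6b (24.995 ± 3.13), Ms4a6c (10.04 ± 1.93), Ms4a7 (3.24 ± 0.989), Ms4a4c (2.65 ± 1.14) and Ms4a4a (2.15 ± 1.09) to Ms4a4b (0.446 ± 0.384), a 136-fold range. Ms4a6d exceeded Ms4a6b 2.42-fold, Ms4a6b exceeded Ms4a6c 2.49-fold, Ms4a6c exceeded Ms4a7 3.10-fold and Ms4a4a exceeded Ms4a4b 4.83-fold, each in 7 of 7 mice (two-sided exact sign-flip test, adjusted p = 0.0234 over 6 neighbouring pairs). Ms4a7 and Ms4a4c (exact adjusted p = 0.075) and Ms4a4c and Ms4a4a (exact adjusted p = 0.188) did not differ beyond the spread between mice.

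In PS2APP;Trem2ko mice the order of the means was the same, from Ms4a6d (66.0 ± 1.99 nRPKM, SD, n = 6) through Ms4a6b (26.4 ± 1.55), Ms4a6c (8.30 ± 2.04), Ms4a7 (4.22 ± 1.53), Ms4a4c (3.81 ± 2.85) and Ms4a4a (3.46 ± 1.66) to Ms4a4b (1.19 ± 1.27). With 6 mice the sign-flip test cannot give a p below 0.0312, and 0 of the 6 neighbouring pairs passed after adjustment, although Ms4a6d was above Ms4a6b, Ms4a6b above Ms4a6c and Ms4a6c above Ms4a7 in 6 of 6 mice (exact adjusted p = 0.0625 each). When counts were divided by the number of stretches found in no other gene instead of the gene length the authors used, Ms4a6b came below Ms4a6c in PS2APP;Trem2wt mice and Ms4a7 below Ms4a4c in both genotypes. By construction this divides the Ms4a6c counts by fewer stretches, because those shared with BE692007 were left out of the divisor.

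The members differed in how much they varied from mouse to mouse. The SD of Ms4a6d was 14.2% of its mean in PS2APP;Trem2wt and 3.01% in PS2APP;Trem2ko mice, and that of Ms4a6b 12.5% and 5.89%, whereas for Ms4a4b it was 86.1% and 107%. Ms4a4a (50.7% and 47.9%), Ms4a4c (42.8% and 74.8%), Ms4a7 (30.5% and 36.2%) and Ms4a6c (19.2% and 24.6%) lay between.

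To describe what each member varied with, its log2(nRPKM + 0.1) was related across the 13 mice to 4 marker scores, each the mean log2 level of a list of genes, after the mean of each genotype had been subtracted. Of these 28 relations, 7 passed an adjusted p of 0.05 (two-sided permutation within genotype). Points in these relations share the library of a mouse, and the data used here give neither the number of cells of each kind nor the level per cell.

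Ms4a7 and Ms4a4a followed the border macrophage score, built from 12 genes including Mrc1, Cd163, Lyve1, Pf4 and Cd209f, which mark perivascular and meningeal macrophages. For Ms4a7 Pearson's r was 0.93 (permutation p = 0.00063, adjusted p = 0.00581) and Spearman's rho 0.89 (permutation p = 0.00111), and r was 0.89 without the 2 mice farthest from the median score. For Ms4a4a r was 0.87 (permutation p = 0.00083, adjusted p = 0.00581) and rho 0.78 (permutation p = 0.00507), and r was 0.75 without those 2 mice. Among the other members r with this score was between -0.07 (Ms4a6b) and 0.49 (Ms4a4c), and none passed. The lowest Ms4a4a and Ms4a7 levels, 0.407 and 1.80 nRPKM, were in the same mouse, PS2APP;Trem2wt replicate 4, which also had the lowest border macrophage score, and the highest, 6.49 and 6.69 nRPKM, were both in PS2APP;Trem2ko replicate 3, which had the highest score. All 12 border macrophage genes had counts in every mouse, and their summed level was between 54.0 and 78.9 nRPKM in PS2APP;Trem2wt and between 61.4 and 100.6 nRPKM in PS2APP;Trem2ko mice.

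Ms4a4b followed the T and NK cell score, built from the 11 genes of a list of 16 that passed the filter, with r = 0.92 (permutation p = 2e-05, adjusted p = 0.00056), rho = 0.87 (permutation p = 0.00084) and r = 0.88 without the 2 farthest mice. Its near copy Ms4a4c was related to this score too (r = 0.74, permutation p = 0.00653, adjusted p = 0.0261, rho = 0.67, permutation p = 0.022), but r was 0.55 without the 2 farthest mice and the call was lost without PS2APP;Trem2wt replicate 3 (r = 0.69) or 4 (0.72) or PS2APP;Trem2ko replicate 2 (0.65) or 4 (0.74). T and NK genes were scarce, with summed levels between 1.35 and 7.81 nRPKM in PS2APP;Trem2wt and between 1.68 and 11.4 nRPKM in PS2APP;Trem2ko mice. Cd3e, the gene of a CD3 subunit of the T cell receptor complex, had counts in 12 of the 13 mice, from 0 to 0.910 nRPKM.

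Ms4a4c and Ms4a6c followed the interferon response score, built from 20 genes that interferon is known to induce, such as Ifit1, Isg15 and Irf7. For Ms4a4c r was 0.90 (permutation p = 0.00038, adjusted p = 0.00532), rho 0.89 (permutation p = 0.00034) and r without the 2 farthest mice 0.86. For Ms4a6c r was 0.80 (permutation p = 0.00284, adjusted p = 0.0159), rho 0.85 (permutation p = 0.0011) and r without the 2 farthest mice 0.87, though the adjusted p was 0.150 among the 10 females. Ms4a4b had r = 0.76 (permutation p = 0.00519, adjusted p = 0.0242), rho = 0.72 (permutation p = 0.0105) and 0.56 without those mice, and its call was lost on log2 CPM (adjusted p = 0.0591 by permutation) and without PS2APP;Trem2wt replicate 3 (r = 0.71) or PS2APP;Trem2ko replicate 2 (r = 0.66). The Ms4a6 genes thus differed in value, with r of 0.80 for Ms4a6c, 0.22 for Ms4a6d and 0.09 for Ms4a6b, but the difference between these correlations was not tested. The interferon genes summed to between 172 and 468 nRPKM in PS2APP;Trem2wt and between 207 and 619 nRPKM in PS2APP;Trem2ko mice. PS2APP;Trem2ko replicates 2 and 3 and PS2APP;Trem2wt replicate 3 had the highest T and NK cell scores (1.30, 0.49 and 0.95). The same mice had the highest interferon scores (1.27, 0.97 and 0.78). How the scores relate to each other was not tested, so relations of a member to both cannot be told apart.

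**Figure D3:**
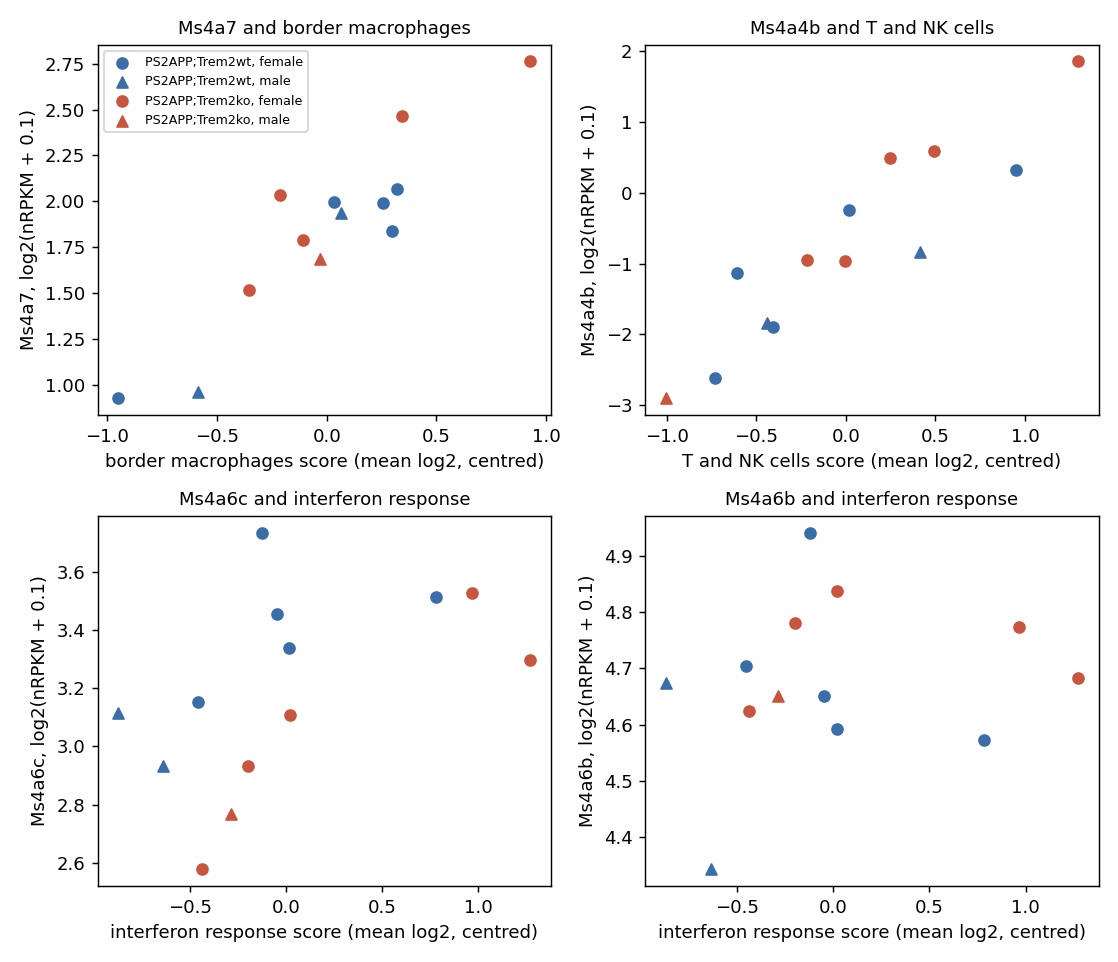
Level of a member as log2(nRPKM + 0.1) on the y axis against a marker score on the x axis (mean log2 level of the list, centred on all mice), with 1 point per mouse, blue for PS2APP;Trem2wt, red for PS2APP;Trem2ko, circles for females and triangles for males. Ms4a7 rose with the border macrophage score (r = 0.93), Ms4a4b with the T and NK cell score (r = 0.92) and Ms4a6c with the interferon score (r = 0.80), whereas Ms4a6b showed no such slope (r = 0.09).

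No member passed the threshold with the score of 16 disease-associated microglia genes, where r was between -0.43 (Ms4a6b) and 0.59 (Ms4a4c). This score itself was lower in PS2APP;Trem2ko mice by 1.29 on the log2 scale (two-sided exact permutation, adjusted p = 0.0035 over 6 scores). Its list was chosen with earlier results of these data known, and 9 of its 16 genes were called lower in these same mice, against 1.53% of all genes. The difference in this score is therefore a description and no separate support. The border macrophage (0.17), T and NK cell (0.25) and interferon (0.41) scores were numerically higher in PS2APP;Trem2ko, each with an exact permutation adjusted p of 0.648.

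All 7 members were also tried against a score of 12 microglia genes, and none passed over the 14 relations added after the first results. Ms4a6d and Ms4a6b had r of 0.66 each (permutation adjusted p = 0.074 each). These 2 values were 0.22 and 0.40 without the 2 farthest mice, so they rest on those mice. Ms4a7 (r = -0.59) and Ms4a4b (r = -0.56) had negative values (permutation adjusted p = 0.0785 each). Without the 2 farthest mice these were -0.70 and -0.56. Against 8 monocyte genes, Ms4a4c passed (r = 0.79, permutation p = 0.00097, adjusted p = 0.0136, rho = 0.79, permutation p = 0.00256, 0.86 without the 2 farthest mice), while Ms4a7 (r = 0.73) and Ms4a4a (r = 0.68) did not (permutation adjusted p = 0.052 each).

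**Figure D4:**
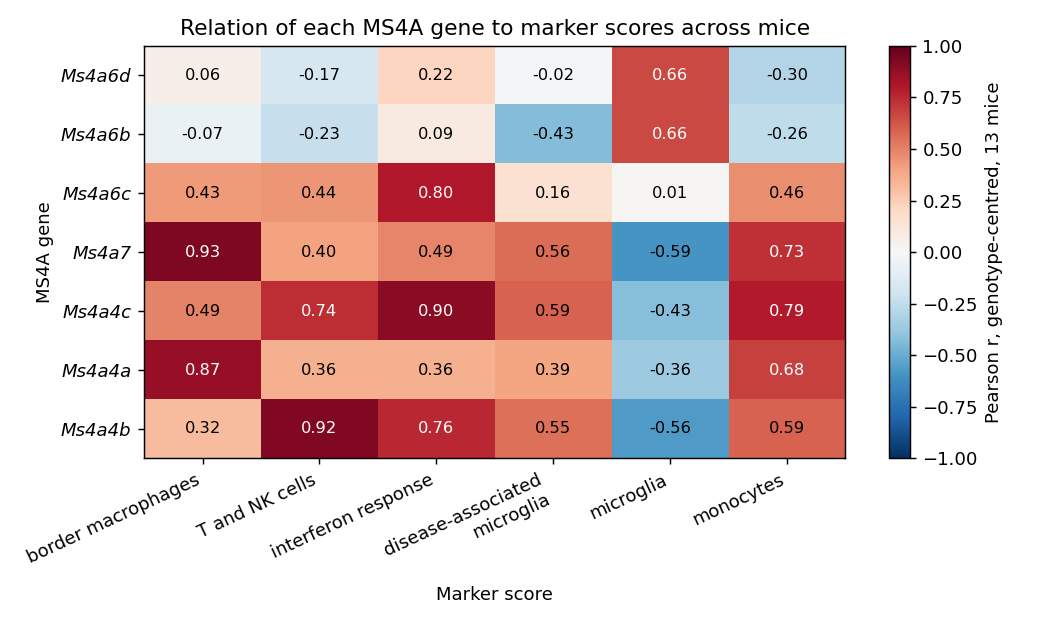
Pearson's r between each MS4A gene (rows) and 6 marker scores (columns) across 13 mice, after subtraction of each genotype's mean, from blue for negative to red for positive values. The highest values are those of Ms4a7 and Ms4a4a with border macrophages, Ms4a4b with T and NK cells and Ms4a4c with the interferon response.

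Among the 21 pairs of members, Ms4a4a with Ms4a7 (r = 0.82, rho = 0.79, permutation adjusted p = 0.026) and Ms4a4b with Ms4a4c (r = 0.80, rho = 0.81, permutation adjusted p = 0.0347) passed. Ms4a4b and Ms4a4c share 7.73% of the Ms4a4c stretches, as in the 127-base run shown above. A read lying wholly within such a stretch aligns at more than 1 place, and only uniquely aligned reads had been counted. The part of shared stretches in this relation was not tested. Ms4a6b and Ms4a6d had r = 0.85 (rho = 0.62, permutation adjusted p = 0.0599), but 0.25 without the 2 mice farthest from the median of Ms4a6b.

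The highest of 17086 values over 13 mice can be large by chance, and none of the following values was tested. For each member the 3 genes with the most similar pattern were found among the 17086 genes tested, by Pearson's r of the genotype-centred log2 CPM over 13 mice, as a description. They were Cd209f (0.94), Pla2g2d (0.93) and Cbr2 (0.91) for Ms4a7, and Pla2g2d (0.91), Plch2 (0.89) and Phyhipl (0.88) for Ms4a4a. Cd3e (0.97), Gjc3 (0.92) and Nlrc5 (0.92) were nearest to Ms4a4b, and C4b (0.93), Fgl2 (0.93) and Sp100 (0.92) to Ms4a4c. Dck (0.91), Esco2 (0.90) and Siglec1 (0.90) were nearest to Ms4a6c, Drosha (0.95), Il7r (0.88) and Atg4a-ps (0.86) to Ms4a6b, and Cse1l (0.91), Atp5c1 (0.89) and Akirin1 (0.88) to Ms4a6d. Cd209f and Cbr2, near Ms4a7, and Siglec1, near Ms4a6c, were among the 12 genes of the border macrophage score. With that score itself Ms4a6c had r = 0.43 (permutation adjusted p = 0.326). Cd3e was among the genes of the T and NK cell score.

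Because Ms4a6b and Ms4a6c differed in their values with the interferon score, their promoters were examined. RefSeq windows of GRCm38.p6, from 250 bases before to 50 after the start, were matched for 6 of the 7 members, Ms4a6d not being among them. The full interferon-stimulated response element, which is the sequence GAAANNGAA followed by a further A, was searched on both strands and was in 3.44% of all 32851 windows and in 0 of the 6 members. GAAANNGAA itself, tried after the full form and contained in it, was in 8.56% of all windows and in those of Ms4a6b, Ms4a6c and Ms4a7, and the PU.1-type sequence AGGAAGT was in 9.35% of all windows and in those of Ms4a6b and Ms4a6c. The 60 bases around GAAANNGAA (in capitals) lie at chr19:11518328-11518387 for Ms4a6b and chr19:11469210-11469269 for Ms4a6c, both on the plus strand of GRCm38, and the same 9 bases occur in both genes. The RefSeq starts are not those of the GENCODE M21 genes placed above. By the latter, the Ms4a6b stretch lies inside the gene, which starts at 11516512. The Ms4a6c stretch lies before its gene's start at 11469366.
Ms4a6b: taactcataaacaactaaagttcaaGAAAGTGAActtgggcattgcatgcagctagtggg
Ms4a6c: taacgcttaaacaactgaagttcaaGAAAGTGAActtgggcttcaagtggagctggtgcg

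Of the 12 other annotated Ms4a genes, only Ms4a14 passed the filter, at a median of 0.134 nRPKM in PS2APP;Trem2wt and 0.0794 nRPKM in PS2APP;Trem2ko mice (log2 fold change -0.26 ± 0.40, SE, edgeR adjusted p = 0.823). The others had at most 45 counts in any mouse and no more than 0.464 nRPKM. Ms4a8a reached 30 counts, Ms4a4d 45, Ms4a2 22, Ms4a15 13, Ms4a1 9, Ms4a3 8, Ms4a12 5, Ms4a5 2 and Ms4a10 1, and Ms4a13 and Ms4a18 had 0 counts in all 13 mice. Within 500 kb of the members, 16 other genes were tested and 1 was called, against 2.04% of all genes. It was the processed pseudogene Gm336 (log2 fold change -1.03 ± 0.19, SE, edgeR adjusted p = 0.010), of whose stretches 67.6% recur in Arap2.

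Tmem176a and Tmem176b, which encode related multi-pass membrane proteins on another chromosome, did not overlap between the genotypes, while 1.64% of all genes did not overlap in CPM. Tmem176a was between 66.0 and 94.7 nRPKM in PS2APP;Trem2wt and between 24.5 and 40.03 nRPKM in PS2APP;Trem2ko mice (log2 fold change -1.30 ± 0.11, SE, edgeR adjusted p = 6.81e-06), and Tmem176b between 129 and 177 and between 56.4 and 85.2 nRPKM (-1.10 ± 0.10, edgeR adjusted p = 9.45e-06).

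Of 8 genes whose products have been reported with MS4A proteins or TREM2, 7 were tested and 3 were called, against 2.04% of all genes. All 3 were lower in PS2APP;Trem2ko mice, with the deleted gene Trem2 itself among them, and Clec7a is also in the disease-associated microglia list. Tyrobp, the signalling adaptor of TREM2, had a log2 fold change of -0.48 ± 0.10 (SE, edgeR adjusted p = 0.0202) and Clec7a one of -0.94 ± 0.17 (SE, edgeR adjusted p = 0.00891). The kinase gene Syk (0.06), the protease genes Adam10 (-0.05) and Adam17 (-0.15) and the Fc receptor chain gene Fcer1g (-0.09) were not called, and Vsig4 did not pass the filter.

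The cell type lists were read beside these values. Of the microglia genes, Cx3cr1 was lower (log2 fold change -0.49, edgeR adjusted p = 0.0067) and the other 11 of 12 were not called. None of the tested border macrophage (12), T and NK cell (11), interferon (20), monocyte (8), B cell (2) or neutrophil (4) genes was called, against 2.04% of all genes. The smallest p-values in those lists belonged to Cd163, Mgl2 and Siglec1, to Klrb1c, Lck and Nkg7, to Mx1, Rsad2 and Ifit3, to Hp, Plac8 and Chil3, to Cd79b and Cd22, and to S100a9, Camp and S100a8. Klrb1c, an NK cell receptor gene, came nearest to the threshold (log2 fold change -2.65 ± 0.72, SE, edgeR adjusted p = 0.0774), and it was the 1 tested T and NK gene with a fold change below 0. The other 10 of 11 lay above 0, as did 19 of 20 interferon genes, beside 50.7% of all genes. The median log2 fold changes of these lists were 0.62 and 0.49. Genes of a list were measured in the same mice, so these counts are not a test. Interferon scores were 1.27 and 0.97 in PS2APP;Trem2ko replicates 2 and 3, and between -0.44 and 0.02 in the other PS2APP;Trem2ko mice. The median summed level of the interferon genes was 289 nRPKM in PS2APP;Trem2wt and 255 nRPKM in PS2APP;Trem2ko mice. For the T and NK genes it was 1.88 and 3.85 nRPKM. Of the disease-associated microglia genes 9 of 16 were lower (Cst7, Lpl, Itgax, Clec7a, Axl, Csf1, Spp1, Gpnmb and Igf1) and 0 higher, beside 1.53% and 0.503% of all genes. The part of other cell types in the MS4A genotype values was not tested.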

How the data were processed

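Per the labels and the study's methods, adapters, low-quality and rRNA reads were discarded by the authors and single-end 50-base reads were aligned to GRCm38 with GSNAP. The authors deposited 2 values per gene and mouse, unnormalized counts of the reads aligned at 1 place and nRPKM, which is RPKM after scaling with a size factor. Genes were named and placed with GENCODE M21.

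Counts were tested with edgeR 4.0.16 in R 4.3.3 (filterByExpr, TMM, glmQLFit and glmQLFTest, no covariate), with Benjamini-Hochberg adjustment over all 17086 genes. The standard error is the fold change divided by the square root of F. Depth was 26120961 to 120569609 counts, and the detection limit of 3 counts covers counting error only. Levels, order and relations used nRPKM on log2(nRPKM + 0.1), with exact permutation, exact sign-flip or 100000 permutations within genotype, in Python 3.11.15. Coding identity came from the longest coding transcript of each member (Biopython 1.88). Scripts were tested on simulated data.

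Alternatives were DESeq2 1.42.0, voom with limma 3.58.1, limma on log2 nRPKM with a pseudocount of 0.1 or 1, a fit with sex, a fit to females, RLE scaling, a minimum of 10 counts in 6 mice, no minimum, and leaving out each mouse. Members and gene lists were chosen with earlier results of these data known. Named were the 7 members, other Ms4a genes with a count, called genes of each list or else its 3 smallest p-values, called genes within 500 kb, and the 3 genes most like each member. BE692007, Ms4a13, Ms4a18, and list genes given as examples were named outside this rule. Nothing in the labels says that mice came from separate litters, so p-values measure the spread between these mice.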

Additional observations from a re-analysis of the deposited data

How the results depend on the processing

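In 22 alternatives, 13 of which left out 1 mouse each, 0 of the 7 members were called and none changed the direction of its fold change. Without each mouse in turn the log2 fold change of Ms4a4b was between 0.66 and 1.84 that of Ms4a4c between 0.18 and 0.74, of Ms4a4a between 0.41 and 0.86, of Ms4a7 between 0.21 and 0.47, of Ms4a6d between 0.06 and 0.17, of Ms4a6b between 0.03 and 0.13 and of Ms4a6c between -0.39 and -0.19. The lowest values of Ms4a4c, Ms4a4a and Ms4a7 came without PS2APP;Trem2ko replicate 3, those of Ms4a6d and Ms4a6b without PS2APP;Trem2wt replicate 2, and voom with limma gave 0.33 for Ms4a4b. DESeq2 called 862 genes, 332 higher and 530 lower in PS2APP;Trem2ko. Without the filter 53 genes were higher, and among females only 173 were lower. Leaving out 1 mouse gave between 244 and 357 called genes, with 42 to 107 higher and 191 to 284 lower. With counts per unshared stretch, the log2 difference of Ms4a6b minus Ms4a6c in PS2APP;Trem2wt mice was -0.31, and Ms4a7 minus Ms4a4c was -1.20 in PS2APP;Trem2wt and -1.09 in PS2APP;Trem2ko. The relations past the threshold numbered 5 to 9 with 1 mouse left out. Ms4a4c with the T and NK cell score was lost on log2 CPM (r = 0.67) and without PS2APP;Trem2wt replicate 3 (0.69) or 4 (0.72) or PS2APP;Trem2ko replicate 2 (0.65) or 4 (0.74). Ms4a4b with the interferon score was lost on log2 CPM (0.71) and without PS2APP;Trem2wt replicate 3 (0.71) or PS2APP;Trem2ko replicate 2 (0.66), and Ms4a6c with the interferon score among females (0.74). The cause was not tested. No paired analysis was possible because the labels do not say which wt and ko mice were handled together, and the replicate numbers used here follow the order of the samples. Ms4a4b, at 3 counts in 1 mouse (PS2APP;Trem2wt replicate 4), is the member that depth limits.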

Other observations

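The share of each member in the summed nRPKM of the 7 genes was compared after the values had been seen. Ms4a6d held 58.1 ± 2.38% (SD over 7 mice) with Trem2 present and 58.4 ± 4.18% (SD over 6 mice) with Trem2 deleted, and Ms4a6b 24.1 ± 1.71% and 23.3 ± 1.43%. Ms4a6c held 9.60 ± 0.713% in PS2APP;Trem2wt mice, from 8.53% to 10.5%, and 7.25 ± 1.29% in PS2APP;Trem2ko mice, from 5.48% to 8.96%, and 5 of the 6 values of PS2APP;Trem2ko fell under the lowest one of PS2APP;Trem2wt. This share differed by a two-sided exact permutation test (p = 0.00233, adjusted p = 0.0163 over the 7 members), whereas the other 6 members had exact adjusted p-values between 0.448 and 0.865. Without each mouse in turn the exact adjusted p for Ms4a6c was between 0.00884 and 0.0455, and the difference between -2.68 and -1.99 percentage points. Among the 10 females the difference was -2.45 points (exact permutation p = 0.0159, adjusted p = 0.111). With so few splits, 1 member alone could not pass 0.05 after adjustment over 7, so the adjusted value among females cannot decide. A share moves with the levels of the other members as well, the Ms4a6c level itself was not called, and 49.6% of its stretches are shared with BE692007, whose part in the share was not tested.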
